A study of Mus musculus with 2 samples.

Results

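The nuclear genes for the subunits of mitochondrial oxidative phosphorylation were described in mouse CD4+ T cells grown under Th17 conditions with antigen presenting cells (APCs). Genes were taken by symbol: those starting with Ndufa, Ndufb, Ndufc, Ndufs or Ndufv (complex I), Sdha to Sdhd (complex II), Uqcr and Cyc1 (complex III), Cox4 to Cox8 (complex IV) and Atp5 (complex V), with Cycs for cytochrome c. Assembly factors and pseudogenes were left out. The rule found 80 of the 13056 genes with Entrez identifiers in the deposited table, which holds 24440 features in all. Of the 80 genes, 37 belong to complex I, 4 to complex II, 9 to complex III, 15 to complex IV, 14 to complex V and 1 is cytochrome c.

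Both libraries were made from wild-type CD4+ T cells of C57BL/6 mice aged 6 to 8 weeks, cultured for 48 h. In the OX40L-TG-APC library the APCs carried a transgene for OX40L, which binds OX40, a costimulatory receptor on T cells. In the WT-APC library the APCs were wild type. RNA was taken from 5000000 T cells, and each library was built from 1 µg of it. Which cells express the transgene, which cells served as APCs and whether animals were pooled are not given in the sources used here. Each condition had 1 library, so every difference below compares 2 libraries, has no replicate check and carries no test.

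The respiratory chain passes electrons from NADH (complex I) and succinate (complex II) through complex III and cytochrome c to oxygen at complex IV. Complexes I, III and IV pump protons across the inner mitochondrial membrane, and complex V, the ATP synthase, uses that gradient to make ATP. T cells use oxidative phosphorylation together with glycolysis after activation. Complexes I, III, IV and V also hold subunits encoded by mitochondrial DNA, and these 13 genes were not analysed here.

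Values are FPKM (fragments per kilobase of transcript, scaled for library size), a level that is comparable between genes because it is given per length. The libraries held an estimated 27100000 fragments (OX40L-TG-APC) and 23700000 fragments (WT-APC). Each fold is the plain ratio of OX40L-TG-APC over WT-APC with a 95% exact interval for counting error alone, so that differences between cultures are not covered. Each log2 change is on the log2(FPKM + 1) scale, which understates the change of low genes. T cell markers were present in both libraries, with Cd4 at 246 FPKM (OX40L-TG-APC) and 201 FPKM (WT-APC), and Cd3e at 86.5 FPKM (OX40L-TG-APC) and 98.0 FPKM (WT-APC). Each of the 11 B cell markers had its smaller value with OX40L-TG APCs, and none was at 0. Their levels summed to 112 FPKM (OX40L-TG-APC) and 227 FPKM (WT-APC). Most of either sum was Cd74, at 89.2 FPKM (OX40L-TG-APC) and 172 FPKM (WT-APC), so the sums mainly describe that gene. The 10 markers whose larger value reached 1 FPKM had median levels of 1.98 FPKM (OX40L-TG-APC) and 4.99 FPKM (WT-APC). Of 12 myeloid and dendritic cell markers 11 were lower, with a summed level of 6.80 FPKM (OX40L-TG-APC) and 15.8 FPKM (WT-APC). Siglech and Clec9a were listed at 0 in the OX40L-TG-APC library. In the WT-APC library they had only 0.0511 FPKM (Siglech) and 0.0249 FPKM (Clec9a). The 2 CD8 T cell markers summed to 6.33 FPKM (OX40L-TG-APC) and 7.02 FPKM (WT-APC). The part of these other cells in the values below was not tested. In bulk RNA, fewer cells of a type and less RNA per cell cannot be told apart.

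The oxidative phosphorylation genes were slightly higher in the OX40L-TG-APC library as deposited and, at their median, under 2 rescalings of the libraries. Of the 80 genes 78 had the larger FPKM in that library as deposited, whereas 69 of 79 were higher once OX40L-TG-APC values were divided by the median ratio of genes over 10 FPKM, and 66 of 79 with equal summed FPKM. As deposited, only Ndufb11 and Cycs were lower. Over all genes whose larger value reached 1 FPKM, 7266 of 10645 were higher as deposited. Among those with a mean of at least 50 FPKM, 1262 of 1558 were higher, also as deposited. The matching counts over all genes were not made after the rescalings, so the rescaled counts above have no share beside them. After the rescalings, in the order above, the all-gene median log2 change was −0.0022 and −0.050. The median log2 change of the 79 genes whose larger value reached 1 FPKM was 0.26, with quartiles of 0.20 and 0.35, beside a median of 0.11 over all 10645 genes kept by the same filter. The 1 gene under that filter was Cox6a2, the heart and muscle isoform of a complex IV subunit, at 0.135 FPKM (OX40L-TG-APC) and 0.0774 FPKM (WT-APC). The genes lay 0.15 above the all-gene median on the log2 scale as deposited, 0.14 above it after the median ratio was set to 1 and 0.14 above it with equal summed FPKM. A rescaling divides every OX40L-TG-APC value by the same number, so this gap could hardly change and its constancy is no check. Together the 80 genes made up 2.24% of the summed FPKM in the OX40L-TG-APC library and 2.08% in the WT-APC library.

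The excess was small for single genes. A difference of at least 25% upwards on the FPKM + 1 scale was found for 28 of the 79 genes (35.4%), beside 21.5% of all genes. The matching difference downwards, at least 20%, was found for 0 of them, beside 7.14% of all genes. At the 25% limit, Ndufb8 lay just inside and Ndufa11 just outside, both with a log2 change of 0.32. On the same FPKM + 1 scale only Cox4i2 was at least 2-fold higher, beside 2.26% in the whole table, and 0 of the subunit genes were 2-fold lower, beside 1.32% in the whole table. In plain FPKM the folds of Cox7a1 and Cox6b2 also passed 2. The count past 25% depended on the scaling. With the median ratio set to 1 it was 10 of 79 (12.7%) beside 13.1% of all genes, and with equal summed FPKM it was 8 of 79 (10.1%) beside 10.9% of all genes. Over all genes the split of higher against lower calls was 2285 to 760 as deposited, 1390 to 1193 after the median ratio was set to 1, and 1156 to 1497 with equal sums. After either rescaling the share of oxidative phosphorylation genes past 25% was thus near that of all genes. The gap between their median and the all-gene median was kept by construction.

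The genes are among the more highly expressed ones. Of the 80, 37 had at least 100 FPKM and 74 at least 10 FPKM in both libraries. The 65 genes with a mean of at least 50 FPKM had a median log2 change of 0.25, and 21 of them (32.3%) were at least 25% higher. Over all 1558 genes at that level the median was 0.19 and 25.7% were at least 25% higher. For the most abundant the difference was smaller: the 21 subunit genes with a mean of at least 200 FPKM had a median of 0.24, beside 0.23 over all 280 genes at that level. Folds of those 65 genes ranged from 0.985 to 1.52. At the deposited scaling the fold interval lay above 1 for 69 of the 80 genes and included 1 for 11. The same count was not made over all genes. Genes over 10 FPKM in both libraries had a median ratio of 1.09 at that scaling, so an interval above 1 does not set a gene apart. The authors' deposited table of changed genes, 398 rows with an absolute log2 ratio of at least 1.00, lists 0 of the 80. Cox4i2, Cox7a1 and Cox6b2 are thus not listed either, although their plain folds passed 2. Why they are absent was not tested.

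**Figure D1:**
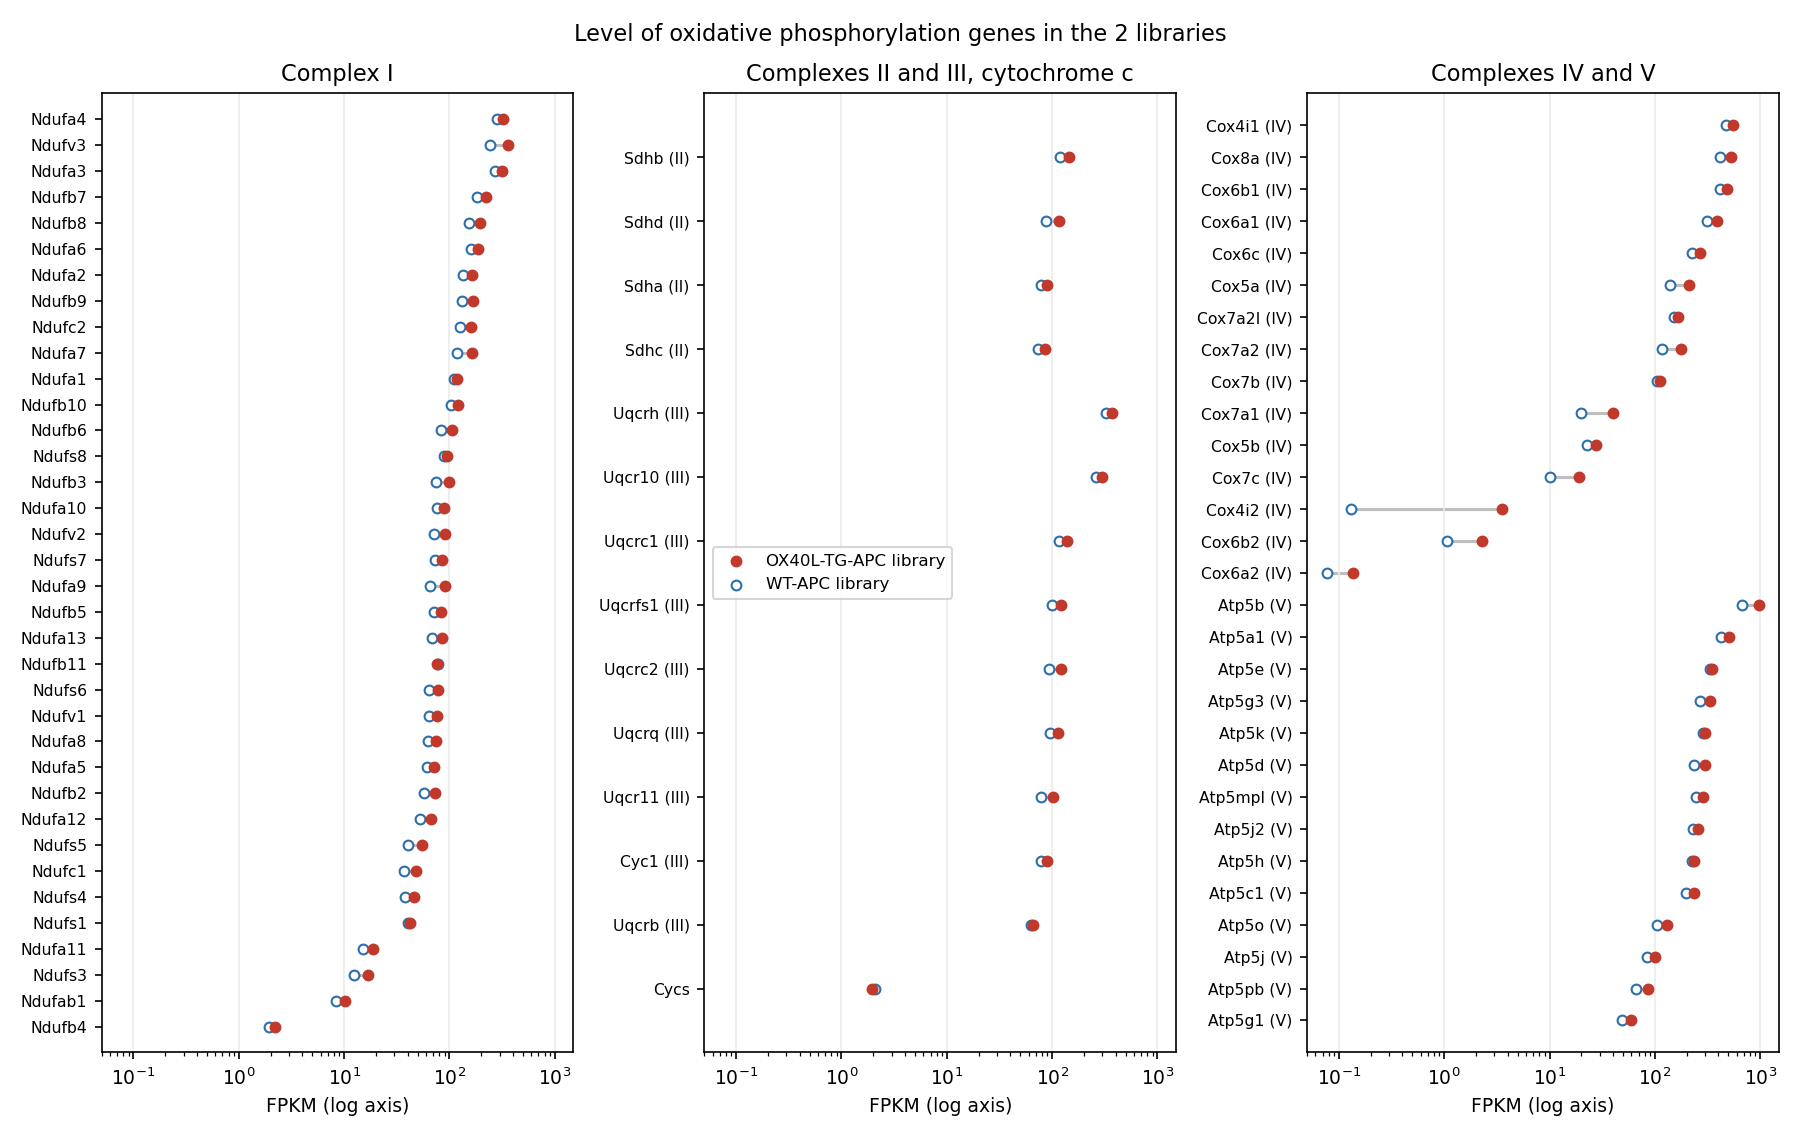
FPKM of 79 oxidative phosphorylation genes on a log axis, with the OX40L-TG-APC library as filled points and the WT-APC library as open points, sorted by level within each complex. Filled points lie right of open ones for 77 of these 79 genes, and the largest gap is that of Cox4i2 (3.56 against 0.130 FPKM). Over all genes kept, 7266 of 10645 were higher in the OX40L-TG-APC library.

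Promoters were read to see what the genes share beyond their symbol. Factors that bind promoters of respiratory genes include NRF1, the ETS family protein GABP, and YY1. Of the 80 genes, 65 had a promoter window in the RefSeq table of GRCm38.p6, from 250 bases before to 50 bases after the gene's start. The NRF1 motif, GCGCA and GCGC with any base between them, was searched on either strand and was present for 16 of the 65 genes (24.6%), against 12.8% of the 8587 kept genes with a window. The letters AAGATGGC (YY1) were present for 10 genes (15.4%), against 5.83% of kept genes, and CCGGAAG (ETS) for 15 (23.1%), against 22.6% of kept genes. At least 1 of these motifs was present for 35 genes (53.8%), against 36.0% of kept genes, and 30 had none. A gene with several windows counted once, as holding a motif when any of them did. The median log2 change was 0.25 for genes with the NRF1 letters and 0.30 for those without, and it was 0.27 for genes with any of the 3 motifs and 0.31 for those with none. Windows of 3 genes with the NRF1 letters follow, 5′ to 3′ on the minus strand of GRCm38.p6, with every motif match in capitals: Cox6a1 (chr5:115348909-115349208), Ndufs6 (chr13:73328433-73328732) and Sdhd (chr9:50603800-50604099).
Cox6a1: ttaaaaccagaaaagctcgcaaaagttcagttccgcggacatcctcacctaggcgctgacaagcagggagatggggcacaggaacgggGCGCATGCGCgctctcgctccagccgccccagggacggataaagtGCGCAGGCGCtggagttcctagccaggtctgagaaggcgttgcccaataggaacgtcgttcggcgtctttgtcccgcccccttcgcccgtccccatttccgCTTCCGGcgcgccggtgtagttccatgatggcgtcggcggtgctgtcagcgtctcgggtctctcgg
Ndufs6: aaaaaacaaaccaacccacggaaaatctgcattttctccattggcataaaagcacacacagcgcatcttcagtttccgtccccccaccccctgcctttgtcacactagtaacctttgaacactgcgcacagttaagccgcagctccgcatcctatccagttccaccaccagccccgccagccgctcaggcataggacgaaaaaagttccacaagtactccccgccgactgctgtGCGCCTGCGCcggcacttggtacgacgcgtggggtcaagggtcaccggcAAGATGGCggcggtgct
Sdhd: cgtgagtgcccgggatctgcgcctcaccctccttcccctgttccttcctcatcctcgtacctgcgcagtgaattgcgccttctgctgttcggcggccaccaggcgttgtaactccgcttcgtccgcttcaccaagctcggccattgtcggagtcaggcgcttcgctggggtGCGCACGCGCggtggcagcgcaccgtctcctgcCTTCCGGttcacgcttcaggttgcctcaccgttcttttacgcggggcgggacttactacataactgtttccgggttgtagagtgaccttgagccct

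The Cox6a1 window holds the NRF1 letters at 2 places and an ETS match close to the start. The Ndufs6 window has an NRF1 match just before the start and a YY1 match after it, and the Sdhd window has an NRF1 and an ETS match. A match describes the letters only.

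Complex I, NADH dehydrogenase, had 37 genes, and their median log2 change was 0.27. Of these, 15 were at least 25% higher, and their summed level was 4205 FPKM (OX40L-TG-APC) and 3446 FPKM (WT-APC). The 7 core subunits of the peripheral arm, which carry the flavin and the iron-sulfur clusters, had a median log2 change of 0.23, with 2 at least 25% higher. The 30 supernumerary subunits had a median of 0.29, with 13 higher.

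The core gene Ndufv1, whose product binds the flavin that accepts electrons from NADH, had 76.6 FPKM in the OX40L-TG-APC library and 63.9 FPKM in the WT-APC library. Ndufv2, a neighbouring iron-sulfur subunit, had 90.6 FPKM (OX40L-TG-APC) and 71.0 FPKM (WT-APC). Ndufs1, the iron-sulfur subunit next in the electron path, had 41.8 FPKM (OX40L-TG-APC) and 40.7 FPKM (WT-APC), a fold of 1.03 (0.933 to 1.13). The flavin end of the arm therefore held both a gene past 25% and one whose interval included 1. Ndufs3 had the lowest level of the core genes, with 16.7 FPKM (OX40L-TG-APC) and 12.5 FPKM (WT-APC), and the other core gene past 25%. Ndufs7 and Ndufs8, iron-sulfur subunits near the quinone site, had folds of 1.17 and 1.07.

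Among supernumerary subunits of complex I, the largest log2 change was that of Ndufv3, an accessory subunit near the flavin end. It had 362 FPKM in the OX40L-TG-APC library and 245 FPKM in the WT-APC library, a fold of 1.48 (1.42 to 1.54). Ndufa9, an accessory subunit that holds a bound nucleotide, had 91.5 FPKM (OX40L-TG-APC) and 65.2 FPKM (WT-APC), a fold of 1.40 (1.33 to 1.49). At the other end, Ndufb11, an X-linked subunit of the membrane arm, had 76.3 FPKM (OX40L-TG-APC) and 77.4 FPKM (WT-APC), a fold of 0.985 (0.921 to 1.05). It was the only complex I gene lower with OX40L-TG APCs as deposited, and its interval included 1. Ndufb11 has 1 near-identical annotated copy, and its printed locus is also overlapped by the gene Rbm10, so its level is uncertain. Ndufa4, named for complex I and now assigned to complex IV, had 325 FPKM (OX40L-TG-APC) and 285 FPKM (WT-APC), a fold of 1.14. Ndufs5 had a fold of 1.36, but the table prints its row on chromosome 16 while RefSeq has the gene on chromosome 4, so its identity is uncertain.

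**Figure D2:**
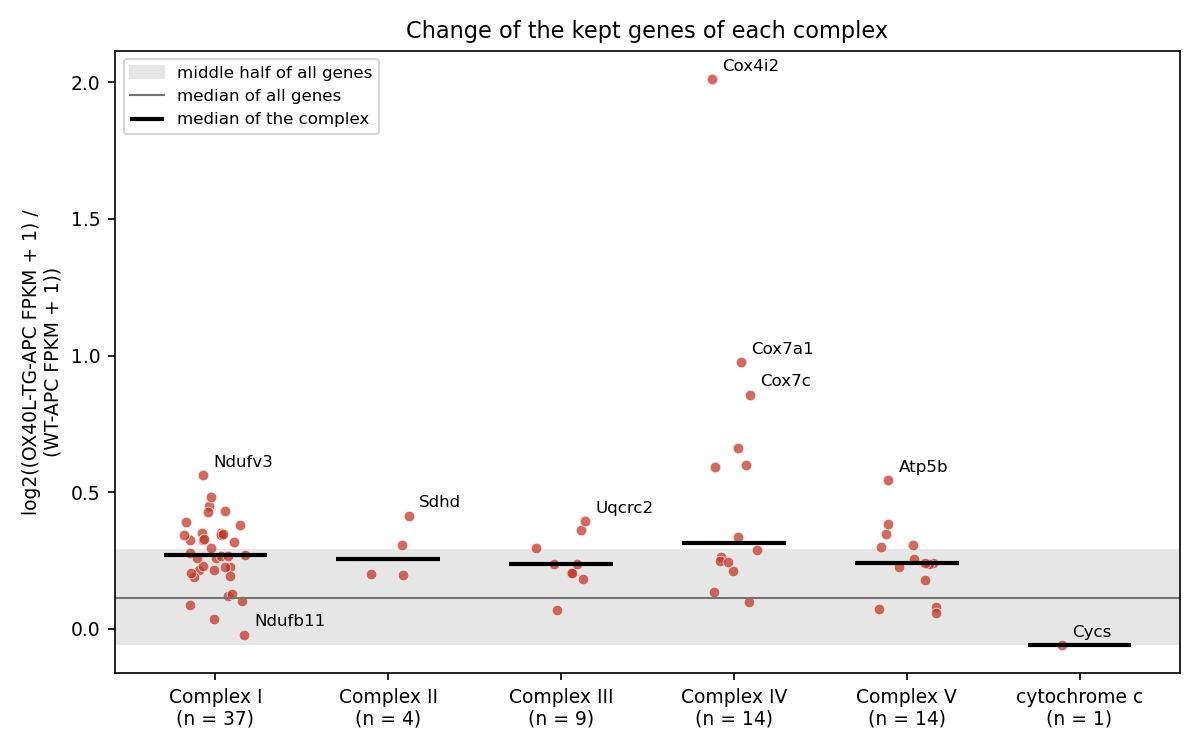
Log2 change of each kept gene by complex (points, 1 per gene), with the median of the complex as a black bar, the median of all genes (0.11) as a grey line and the middle 50% of all genes as a grey band. The medians of complexes I to V lie between 0.24 and 0.31, and Cox4i2, Cox7a1 and Cox7c stand above the other genes.

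Complex II, succinate dehydrogenase, is also an enzyme of the TCA cycle and is encoded wholly in the nucleus. All 4 genes were higher in the OX40L-TG-APC library, as deposited and under both rescalings, with a median log2 change of 0.25. The catalytic flavoprotein gene Sdha had 89.2 FPKM (OX40L-TG-APC) and 77.7 FPKM (WT-APC). The iron-sulfur subunit gene Sdhb had 146 FPKM (OX40L-TG-APC) and 118 FPKM (WT-APC). Of the membrane anchors, Sdhc had 85.3 FPKM (OX40L-TG-APC) and 74.0 FPKM (WT-APC), and Sdhd had 116 FPKM (OX40L-TG-APC) and 86.7 FPKM (WT-APC). Sdhd, whose promoter window is shown above, was the only one past 25%, with a fold of 1.34 (1.27 to 1.41).

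Complex III, which passes electrons from ubiquinol to cytochrome c, had a median log2 change of 0.24, and 2 of its 9 genes were at least 25% higher. Cyc1, which encodes the haem protein cytochrome c1, had 89.6 FPKM (OX40L-TG-APC) and 77.5 FPKM (WT-APC). Uqcrfs1, the Rieske iron-sulfur protein, had 122 FPKM (OX40L-TG-APC) and 99.3 FPKM (WT-APC). Both catalytic subunit genes were thus higher, neither by 25%. The core protein genes were Uqcrc1, with 138 FPKM (OX40L-TG-APC) and 117 FPKM (WT-APC), and Uqcrc2, with 122 FPKM (OX40L-TG-APC) and 92.9 FPKM (WT-APC). Uqcrc2 had the largest fold of the complex, 1.32 (1.24 to 1.41), followed by the small subunit gene Uqcr11 at 1.29. The highest levels were those of the hinge protein gene Uqcrh, with 370.0 FPKM (OX40L-TG-APC) and 326 FPKM (WT-APC), and of Uqcr10. The smallest fold was that of Uqcrb, 1.05 (0.958 to 1.16), a gene with 3 near-identical copies among annotated transcripts.

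Cycs, the cytochrome c that carries electrons from complex III to complex IV, had 1.97 FPKM (OX40L-TG-APC) and 2.09 FPKM (WT-APC), a fold of 0.942 (0.709 to 1.28). Its level was far under that of the complexes on either side. Cycs has 4 near-identical annotated copies, at least 95% identical over at least 200 bases, among which reads can be divided, so its level is uncertain.

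Complex IV, cytochrome c oxidase, showed the widest spread. Its 14 kept genes had a median log2 change of 0.31, and 7 were at least 25% higher. Without complex IV, the other 65 genes had a median of 0.26 and 21 higher genes, so the complex did not set the value of the whole group. The main isoform genes had the highest levels. Cox4i1 had 551 FPKM (OX40L-TG-APC) and 475 FPKM (WT-APC), a fold of 1.16 (1.12 to 1.197), and Cox8a had 526 FPKM (OX40L-TG-APC) and 416 FPKM (WT-APC). Cox6b1 had 489 FPKM (OX40L-TG-APC) and 412 FPKM (WT-APC), and Cox6a1, whose promoter is shown above, had 387 FPKM (OX40L-TG-APC) and 316 FPKM (WT-APC).

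Several complex IV subunits come in alternative isoforms, some of them known for a restricted set of tissues. Cox4i2, an isoform known from lung and induced by low oxygen, had 3.56 FPKM in the OX40L-TG-APC library and 0.130 FPKM in the WT-APC library. These levels correspond to an estimated 70 and 2 fragments, and the fold of 27.4 has an interval of 8.16 to 258. Its printed locus on GRCm38 (chr2:152754173-152765037) is also overlapped by the RefSeq gene Bcl2l1, a survival gene. The Bcl2l1 row itself is printed outside that locus (chr2:152780668-152834218), with 44.5 FPKM (OX40L-TG-APC) and 27.4 FPKM (WT-APC). The part of Cox4i2 reads from Bcl2l1 was not tested. Even in the OX40L-TG-APC library Cox4i2 was far under Cox4i1.

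Cox7a1, the heart and muscle isoform of another subunit (chr7:30184171-30186030), had 40.0 FPKM (OX40L-TG-APC) and 19.8 FPKM (WT-APC), a fold of 2.02 (1.71 to 2.39) and a log2 change of 0.98. Its widely expressed partner Cox7a2 had 177 FPKM (OX40L-TG-APC) and 117 FPKM (WT-APC), a fold of 1.51 (1.41 to 1.62). Cox7a2l, a related protein that takes part in respiratory supercomplexes, had 166 FPKM (OX40L-TG-APC) and 151 FPKM (WT-APC), a fold of 1.10. Within this family both Cox7a isoform genes were past 25% and the supercomplex member was not. Cox6b2, a testis isoform, had 2.27 FPKM (OX40L-TG-APC) and 1.07 FPKM (WT-APC), an estimated 29 and 12 fragments, with a fold of 2.13 (1.05 to 4.55) and a log2 change of 0.66. For Cox6a2 the estimated 2 and 1 fragments allow no fold.

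Another 2 complex IV genes were picked after their values were seen. Cox5a, which encodes a subunit facing the matrix, had 211 FPKM (OX40L-TG-APC) and 139 FPKM (WT-APC), a fold of 1.52 (1.44 to 1.60), the highest of the 65 subunit genes with a mean of at least 50 FPKM. Its partner in the enzyme, Cox5b, had 27.6 FPKM (OX40L-TG-APC) and 22.9 FPKM (WT-APC), a fold of 1.21 (1.03 to 1.42). Cox7c, a small membrane subunit, had 19.2 FPKM (OX40L-TG-APC) and 10.2 FPKM (WT-APC), a fold of 1.89 (1.52 to 2.38). The smallest log2 change of a kept complex IV gene, 0.10, was that of Cox7b, with 112 FPKM (OX40L-TG-APC) and 105 FPKM (WT-APC). Its fold was 1.07 (0.996 to 1.15), an interval that included 1. Cox7b has 2 near-identical copies, and its printed locus is also overlapped by Atp7a and Tlr13, so its level is uncertain. Subunits of the same enzyme thus differed by unequal amounts.

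**Figure D3:**
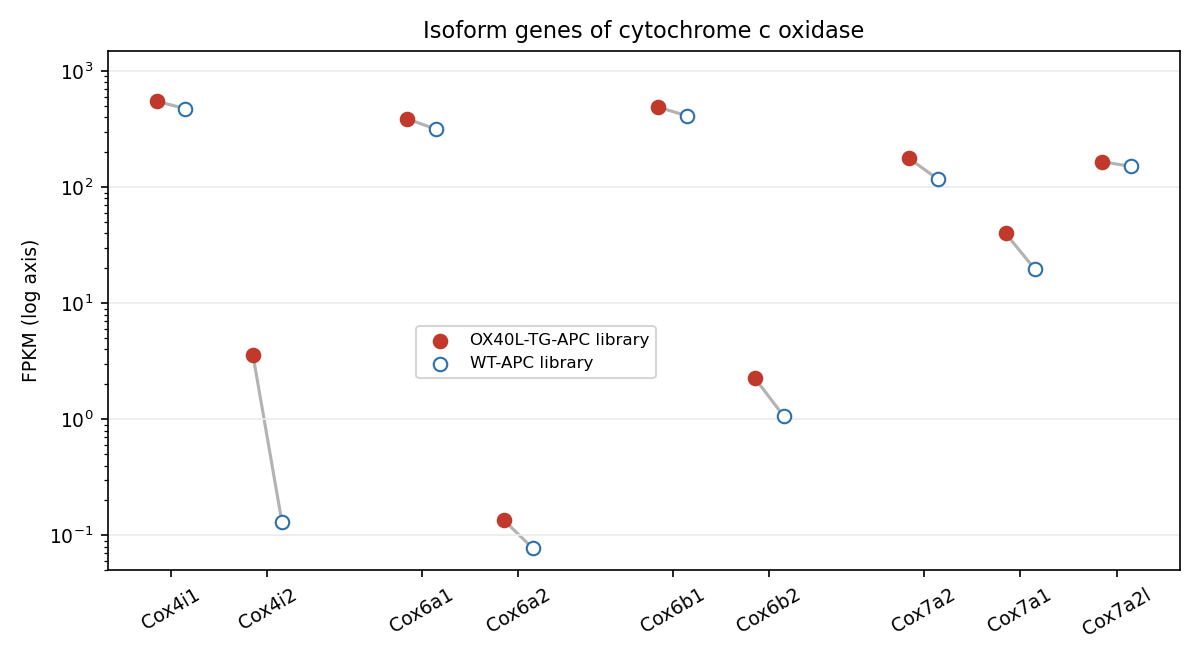
FPKM on a log axis of the isoform genes of complex IV, with the OX40L-TG-APC library as filled points to the left of the WT-APC library as open points. Cox4i2, Cox6a2 and Cox6b2 lie far under Cox4i1, Cox6a1 and Cox6b1 in both libraries, and the steepest line is that of Cox4i2.

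Complex V, the ATP synthase, had a median log2 change of 0.24, and 3 of its 14 genes were at least 25% higher. Atp5b, the catalytic beta subunit (chr10:128082940-128090388), had the highest level of all 80 genes, with 985 FPKM in the OX40L-TG-APC library and 676 FPKM in the WT-APC library. Its fold was 1.46 (1.43 to 1.49). Atp5a1, the alpha subunit that alternates with beta in the F1 head, had 505 FPKM (OX40L-TG-APC) and 428 FPKM (WT-APC), a fold of 1.18 (1.15 to 1.22). The intervals of these partner subunits did not overlap. The F1 stalk genes Atp5c1 (gamma), Atp5d (delta) and Atp5e (epsilon) had folds of 1.18, 1.27 and 1.06.

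The membrane ring of the synthase is built from subunit c, for which 2 genes were in the table. Atp5g1 had 58.9 FPKM (OX40L-TG-APC) and 49.2 FPKM (WT-APC), and Atp5g3 had 336 FPKM (OX40L-TG-APC) and 271 FPKM (WT-APC). Their folds were 1.198 (1.14 to 1.255) and 1.24 (1.19 to 1.28), with intervals that overlapped. The fragments behind them were estimated from median annotated lengths of 2675.5 bases (Atp5g1) and 770 bases (Atp5g3). If the Atp5g1 transcripts present are shorter, its interval is too narrow. Atp5pb, the subunit b of the outer stalk, had 86.0 FPKM (OX40L-TG-APC) and 65.7 FPKM (WT-APC), a fold of 1.31 (1.22 to 1.40). Atp5k, the subunit e at which synthase dimers meet, had 301 FPKM (OX40L-TG-APC) and 286 FPKM (WT-APC), a fold of 1.05 (0.999 to 1.11). Atp5h, the subunit d, had a fold of 1.04, but its row is printed on chromosome 15 while RefSeq has the gene on chromosome 11, and it has 4 near-identical copies.

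Length, level and copies were compared with the size of the change over the 79 genes, as a description across genes that share the same 2 libraries. Spearman's rho of the log2 change was 0.04 with transcript length, −0.16 with mean FPKM and −0.15 with the number of near-identical copies. The 23 genes with a near-identical copy had a median log2 change of 0.26, and the 56 without had 0.26. Their lower quartiles differed, 0.11 with a copy and 0.21 without. Not above the all-gene median were 6 of the 23 and 4 of the 56. Ndufb11 and Cycs, the only genes lower as deposited, both have copies. Another protein-coding gene overlaps the locus of 19 genes. Fold intervals had a median relative width of 6.88% to each side.

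Lists of partner genes were described the same way, by their counts beside the shares of all genes given above. The 49 assembly factors kept, proteins that build the complexes but are not part of them, had a median log2 change of 0.10, with 4 genes at least 25% higher and 1 at least 20% lower. Cox17, a copper chaperone for complex IV, had 203 FPKM (OX40L-TG-APC) and 146 FPKM (WT-APC). Pet117, another complex IV factor, had 0.623 FPKM (OX40L-TG-APC) and 3.20 FPKM (WT-APC). These levels are low and its locus is shared with another gene, so the part of reads from Pet117 is uncertain. The subunit genes and the genes that help assemble them therefore had different medians, 0.26 against 0.10. They also differed in level, with medians of 113 and 13.8 FPKM in the OX40L-TG-APC library. At a mean of 10 to 50 FPKM the median log2 change was 0.11 over all genes and 0.38 over 9 subunit genes. At 50 to 200 FPKM it was 0.18 over all genes and 0.27 over 44 subunit genes. The part of level in the contrast was not tested.

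The 19 TCA cycle genes, which supply NADH and succinate, had a median of 0.25, with 5 at least 25% higher and 0 lower. Idh2, the mitochondrial NADP-dependent isocitrate dehydrogenase, had 41.6 FPKM (OX40L-TG-APC) and 28.1 FPKM (WT-APC), while Ogdh, of the 2-oxoglutarate dehydrogenase complex, had 22.6 FPKM in both. The 11 carriers and channels of the mitochondrial membranes had a median of 0.30, with 5 higher and 0 lower. Vdac1, the outer membrane channel, had 175 FPKM (OX40L-TG-APC) and 98.1 FPKM (WT-APC), and the citrate carrier gene Slc25a1 had 71.7 FPKM (OX40L-TG-APC) and 39.4 FPKM (WT-APC). Ucp2, an uncoupling protein, had 68.2 FPKM (OX40L-TG-APC) and 78.7 FPKM (WT-APC).

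Other mitochondrial lists lay nearer to the median of all genes. The 77 mitochondrial ribosomal proteins, which translate the mitochondrially encoded subunits, had a median of 0.17, with 14 higher and 0 lower. The 17 genes of mitochondrial dynamics and cristae had a median of 0.15, with 2 higher and 0 lower. The 15 regulators of mitochondrial biogenesis had a median of 0.07, with 1 higher and 2 lower. Nrf1, whose motif was searched above, had 30.2 FPKM (OX40L-TG-APC) and 26.9 FPKM (WT-APC). Tfb1m, a mitochondrial rRNA methyltransferase, had 8.13 FPKM (OX40L-TG-APC) and 5.43 FPKM (WT-APC), and the coactivator gene Ppargc1b had 0.977 FPKM (OX40L-TG-APC) and 1.78 FPKM (WT-APC). Pprc1, a coactivator of the same family, was listed at 0 in the OX40L-TG-APC library and at 12.7 FPKM in the WT-APC library. A listed 0 for a gene at that level can be a failed estimate, so no fold is given.

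Lists outside the respiratory chain set the scale. The 19 glycolysis genes had a median log2 change of 0.57, with 16 at least 25% higher, 0 lower and 3 at least 2-fold higher, a larger shift than that of the oxidative phosphorylation genes. Slc2a3, a glucose transporter, had 228 FPKM (OX40L-TG-APC) and 67.4 FPKM (WT-APC), and the aldolase gene Aldoc had 80.0 FPKM (OX40L-TG-APC) and 28.1 FPKM (WT-APC). The 81 cytosolic ribosomal proteins had a median of 0.11, with 8 higher and 1 lower, and the 17 subunits of the vacuolar proton pump, another rotary pump, had a median of 0.15, with 1 higher and 2 lower. A list of 8 genes tied to the response of the respiratory chain to low oxygen had a median of 0.72, with 6 higher and 0 lower, and it includes Cox4i2 itself. Lonp1, a mitochondrial protease that degrades Cox4i1 protein in human cells under low oxygen, had 113 FPKM (OX40L-TG-APC) and 64.6 FPKM (WT-APC). Hif1a, which encodes an oxygen-regulated transcription factor, had 368 FPKM (OX40L-TG-APC) and 406 FPKM (WT-APC).

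**Figure D4:**
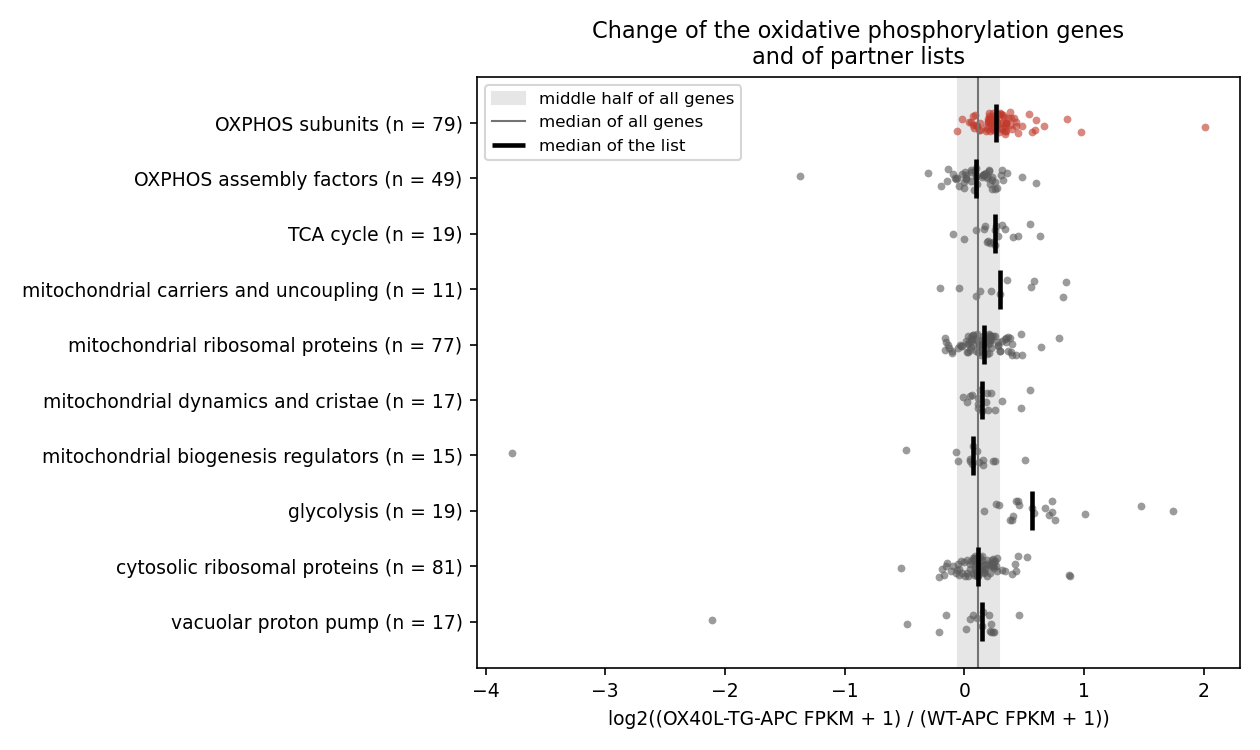
Log2 change of each kept gene (points) for the oxidative phosphorylation (OXPHOS) subunits and partner lists, with the list median as a black bar and the median and middle 50% of all genes as a grey line and band. The subunits are shifted to the right of all genes (0.26 against 0.11), less than glycolysis (0.57), and assembly factors (0.10) are not. The lists were not matched for level.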

How the data were processed

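The authors deposited 1 FPKM value per gene and library. Alignment with TopHat2 and quantification with Cuffdiff on mm9 are named in the submitters' processing notes, with versions, gene models, strand handling and filters not given in the sources used here. The printed loci follow GRCm38, since those of 99.7% of the genes overlap their RefSeq gene on GRCm38.p6, and no coordinates were converted. A second table deposited by the authors gives a log2 ratio and a p-value for 398 genes, per the file headers, with 0.0499 as the largest p-value.

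Entrez identifiers were named from RefSeq (13030 of 13056 matched). The genes and lists were chosen with earlier results of these data known. For 1 of the 80 genes, left out of the plot of levels but counted in every total, single values are not reported here. Of 90 RefSeq genes the symbol rule finds, 10 were not analysed here (Cox7b2, Cox8b, Cox8c, Ndufa4l2, Ndufb1, Ndufb4b, Ndufb4c, Atp5l, Atp5g2 and Atp5md). Changes were the log2 of OX40L-TG-APC over WT-APC values, each FPKM + 1, where the larger value reached 1 FPKM. Genes named were, per complex, the 2 highest levels and the 2 highest and 2 lowest changes, all at least 2-fold changed, the isoform families and at most 2 genes at each end of a partner list; other names give whole groups or were picked after their values were seen.

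Depth was estimated from low values: over 88 single-transcript genes under 0.3 FPKM, 76.1% of the FPKM ratios were whole-number fragment ratios within 0.2% at a step ratio of 0.874, against a median of 4.55% at other trial ratios. Fragments per gene follow from that depth and the median length of annotated transcripts (GENCODE), without a correction for fragment length, so those of short genes are rough. Intervals are exact (Clopper-Pearson). Near-identical copies were found with blastn 2.17.0, and the rest was computed with Python 3.11.15, numpy 2.4.6, pandas 2.3.3 and scipy 1.17.1. Alternatives were the pseudocount, the filter, the scaling of the libraries and the exclusion of genes with shared loci, tissue-restricted isoforms, copies or misplaced rows.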

Additional observations from a re-analysis of the deposited data

How the results depend on the processing

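No paired analysis was possible because each condition had 1 library, and for the same reason no library could be left out. Pseudocount, filter and locus choices kept every median and summed ratio of the complexes above 0 and 1, and scaling moved most of them. With the median ratio of genes over 10 FPKM set to 1, the median log2 change was 0.14 for all members, 0.15, 0.13, 0.11, 0.19 and 0.11 for complexes I to V, and summed-FPKM ratios were 1.12, 1.12, 1.08, 1.13 and 1.11. With equal summed FPKM these medians were 0.089, then 0.10, 0.077, 0.058, 0.13 and 0.062, and the ratios 1.08, 1.08, 1.04, 1.09 and 1.07. Under these scalings, in that order, medians were 0.44 and 0.39 for glycolysis, 0.13 and 0.078 for the TCA cycle, 0.044 and −0.0070 for mitochondrial ribosomal proteins, −0.0071 and −0.050 for assembly factors, −0.046 and −0.092 for the regulators, and −0.0022 and −0.050 for all genes. Members at least 25% higher numbered 10 and 8, genes at least 25% higher 1390 and 1156 and genes at least 20% lower 1193 and 1497. The shift follows from the scaling itself, and the change of single members moved beyond its counting interval for 61 and 68 of 79.

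With a pseudocount of 5 FPKM, 1361 genes were at least 25% higher and 424 at least 20% lower, 101 at least 2-fold higher and 39 lower, and 0 members 2-fold higher. With 0.1 FPKM, 405 genes were at least 2-fold higher, 251 lower, and 3 members higher. With a filter of 5 FPKM, 470 genes were at least 20% lower and 0 members 2-fold higher. Members 2-fold higher were also 0 at loci of 1 coding gene, where the summed ratio of complex I was 1.24, and without tissue-restricted isoforms. In an alternative chosen after seeing the data, without genes that have a near-identical copy, complex IV had a median of 0.60 and a summed ratio of 1.26, and complex V a summed ratio of 1.249. Beyond the construction of each alternative, the cause was not tested. Depth limits the low genes: the WT-APC value of Cox4i2 rests on an estimated 2 fragments, whereas the median member had 1487.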

Other observations

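Among the subunit genes without an Entrez row, 2 had unnamed features inside their GRCm38 locus. At the locus of Atp5g2, the remaining subunit c gene, 1 feature had 2.66 FPKM in the OX40L-TG-APC library and 5.95 FPKM in the WT-APC library. At the locus of Atp5md, a small ATP synthase subunit, 2 features had 4.01 and 2.43 FPKM in the OX40L-TG-APC library, against 5.69 and 2.24 FPKM in the WT-APC library. These features were not counted among the 80 genes, and what part of each transcript they cover was not tested.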
